A study of Mus musculus with 42 samples.

Results

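Expression of 10 genes of innate microbial sensing was followed in mouse tumours treated with a dipeptidyl peptidase inhibitor: the Toll-like receptors Tlr1, Tlr2, Tlr4, Tlr7, Tlr9 and Tlr13, the receptor-like gene Cd180, and the accessory genes Ly86, Ly96 and Cd14. They were taken by symbol from the deposited gene table, which lists 47729 genes, and all 10 were among the 16613 genes kept for testing (a value of 10 or more in 3 or more libraries). The set was chosen by measured values in part: Ly86 was named for its difference from vehicle on day 7 and Tlr2 for its difference on day 14, and the other 8 genes are relatives or partners of these. Differences from vehicle on those days are therefore given as a description, including any count of genes past the threshold of the fit, while day 1 and the differences between harvest hours were tested.

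The tumours arose from Pan02 cells, a line of mouse pancreatic adenocarcinoma, injected under the skin of the right flank of wild-type mice, which are C57BL/6 per the series' design text. Mice received 20 ug of BXCL701 (talabostat, an inhibitor of dipeptidyl peptidases and fibroblast activation protein) or vehicle (PBS) by oral gavage, as 1 dose for day 1 and daily for days 7 and 14. Day 1 BXCL701 tumours were taken at 1, 8 and 16 h, and those of days 7 and 14 also at 0 h, which makes 33 tumours in 11 groups. Vehicle tumours were taken at 0 h on days 1, 7 and 14, which makes 9 tumours in 3 groups. Each of the 14 groups held 3 tumours, each from a different animal. The treatment and the harvest hour cannot be told apart at 1, 8 and 16 h, because vehicle tumours were harvested at 0 h alone. The carcinoma label was met by the epithelial keratins Krt8 and Krt18, with medians of 19797 and 10820 on the deposited scale and no library at 0, while Epcam was low (median 38.5). RNA came from whole tumour tissue, so fewer cells of a type and less RNA per cell cannot be told apart.

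Toll-like receptors are membrane proteins whose leucine-rich outer part binds molecules of microbes or damaged cells and whose inner TIR domain recruits the adaptors MyD88 and TRIF, which lead to NF-kB and interferon regulatory factors. TLR2 works at the cell surface with TLR1 on bacterial lipopeptides. TLR4 binds lipopolysaccharide through its partner MD-2, encoded by Ly96, after CD14 hands the lipid over. TLR7 (single-stranded RNA), TLR9 (unmethylated CpG DNA) and TLR13 (bacterial ribosomal RNA, a receptor mice have) signal from endosomes. RP105, encoded by Cd180, resembles TLR4 outside the cell but lacks the TIR domain, and it needs MD-1, encoded by Ly86, to reach the surface. It is best known from B cells, and it modulates TLR4 signalling. In tumours these genes are typically expressed by macrophages, dendritic cells, neutrophils and B cells.

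On GRCm38 with GENCODE M21, the receptors of the cell surface lie at chr5:64924679-64933563 (Tlr1, minus strand), chr3:83836272-83841767 (Tlr2, minus) and chr4:66827584-66930284 (Tlr4, plus). The endosomal receptors lie at chrX:167304929-167330558 (Tlr7, minus), chr9:106222598-106226883 (Tlr9, plus) and chrX:106143204-106160493 (Tlr13, plus). Ly86 (chr13:37345208-37419036, plus) and Cd180 (chr13:102693558-102739629, plus) lie on the same chromosome. Ly96 lies at chr1:16688051-16709611 (plus). Tlr1 has a close paralog next to it, Tlr6 at chr5:64952031-64960097, and reads that fit both may have been split, so values of Tlr1 are uncertain to that extent. Exons of Cd180 share 182 bases with Mast4 on the other strand, and the sources used here do not give the libraries' strandedness.

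The bases just upstream of 4 starts are shown: those of Ly86 and Tlr2, the genes named for days 7 and 14, of Cd180, the partner of Ly86, and of Tlr9, the gene of the set whose level went most closely with Cd180. They are RefSeq sequences on GRCm38.p6, 5′ to 3′ on each gene's strand, at chr3:83841768-83841858 for Tlr2, chr9:106222348-106222597 for Tlr9, chr13:37345095-37345207 for Ly86 and chr13:102693297-102693546 for Cd180. Capitals mark GAGGAA, the core bound by PU.1, a transcription factor of macrophages and B cells that Spi1 encodes.
Tlr2: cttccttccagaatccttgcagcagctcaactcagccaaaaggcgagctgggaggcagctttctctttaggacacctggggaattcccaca
Tlr9: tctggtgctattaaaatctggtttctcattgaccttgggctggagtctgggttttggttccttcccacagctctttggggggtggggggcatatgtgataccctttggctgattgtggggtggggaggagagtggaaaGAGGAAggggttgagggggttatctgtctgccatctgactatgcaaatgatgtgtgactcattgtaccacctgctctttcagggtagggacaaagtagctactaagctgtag
Ly86: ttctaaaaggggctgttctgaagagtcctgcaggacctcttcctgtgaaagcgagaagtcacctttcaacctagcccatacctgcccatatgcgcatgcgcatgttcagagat
Cd180: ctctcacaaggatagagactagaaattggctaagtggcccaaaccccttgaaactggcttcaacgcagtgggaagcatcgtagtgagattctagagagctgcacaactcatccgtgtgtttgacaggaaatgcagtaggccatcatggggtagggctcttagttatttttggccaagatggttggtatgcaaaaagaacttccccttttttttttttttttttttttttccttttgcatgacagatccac

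Promoter entries were found for 6 of the 10 genes and were searched over up to 250 bases before the start on both strands. GAGGAA was found in Tlr9 at 112 to 107 bases upstream, in Tlr1 at 23 to 18 and in Tlr13 at 83 to 78, against 23.3% of all 32851 promoter windows. The longer GAGGAAGT, which contains it, was found in Tlr1 at 23 to 16 bases upstream and in 2.44% of windows. Tlr9 also held TGANTCA, the AP-1 motif, at 58 to 52 bases upstream, against 6.75% of windows. TATAAA (12.4% of windows) and a spaced pair of interferon regulatory factor half-sites (2.98%), had no match in the 6 genes. No match says only that these letters were not in the window, as in Tlr2, Ly86 and Cd180. Tlr4, Tlr7, Ly96 and Cd14 had no entry.

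Ly86 and Cd14 were far more abundant per length than the receptors, and Ly96 was close to Tlr2. On the deposited log2 FPKM scale, Ly86 averaged 6.60 ± 0.35 and Cd14 averaged 6.36 ± 0.36 (SD, n = 42 tumours), which correspond to median levels of 95.1 and 85.6 FPKM. Ly96 followed at 3.85 ± 0.31 and Tlr2, the most abundant receptor, at 3.68 ± 0.33. Tlr13 (3.10 ± 0.35), Tlr1 (2.74 ± 0.33) and Cd180 (2.53 ± 0.57) stood in the middle. Tlr4 (2.04 ± 0.56), Tlr7 (1.50 ± 0.57) and Tlr9 (1.42 ± 0.70) were the least abundant, and Cd180, Tlr4, Tlr7 and Tlr9 also varied most between tumours.

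The clearest step in this order lay between Cd14 and Ly96: Cd14 was higher in 42 of 42 tumours, and the tumours of the pair did not overlap in any of the 14 groups. Tlr2 exceeded Tlr13 in 39 of 42 tumours, without overlap in 9 groups. The other neighbours were separated in at most 5 of the 14 groups and so were not told apart within most of them. Ly86 exceeded Cd14 in 29 tumours, Tlr1 exceeded Cd180 in 28, and Tlr7 exceeded Tlr9 in 19 of 42. Between partners, Ly86 stood above Cd180 by 4.06 ± 0.38 and Cd14 stood above Tlr4 by 4.33 ± 0.72 on the log2 FPKM scale, in all 42 tumours each (SD). Ly96 stood above its receptor Tlr4 by 1.82 ± 0.64, and Tlr2 stood above Tlr1 by 0.93 ± 0.33, again in all 42 tumours.

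**Figure D1:**
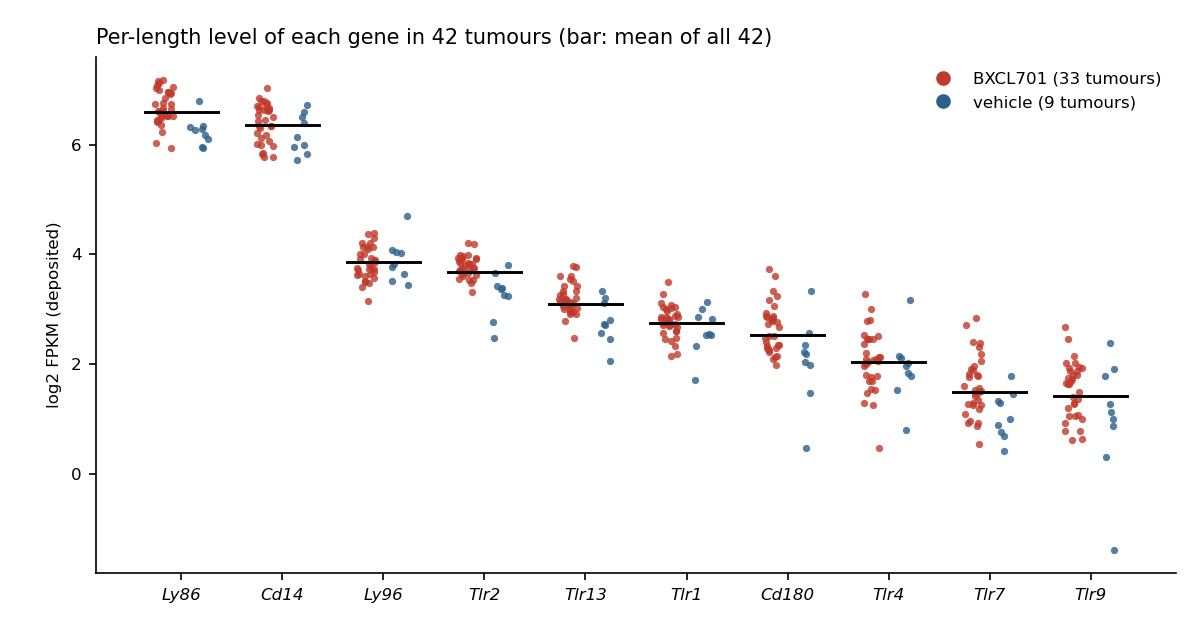
Level per length of each gene, as deposited log2 FPKM (y axis), in 33 BXCL701 tumours and 9 vehicle tumours. Points are tumours, bars are the mean of all 42, and genes run from the highest mean (Ly86, 6.60) to the lowest (Tlr9, 1.42); the step from Cd14 (6.36) to Ly96 (3.85) is the one without overlap.

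After 14 days, tumours of BXCL701-treated mice had higher values of the lipopeptide receptor Tlr2, of the endosomal receptors and of Cd180 than vehicle tumours, and lower values of Ly96. Values are on the deposited scale, which resembles counts but is already scaled, and a log2 difference is on log2(value + 1), BXCL701 minus vehicle, with its SE from a limma fit of all 42 libraries. Of the 10 genes, 9 were fitted higher and 1 lower than vehicle, and their median log2 difference was 0.53 against -0.01 over all tested genes. The adjusted p was under 0.05 for 4 of them (Tlr2, Tlr9, Tlr13 and Cd180), where 3.29% of all tested genes passed, 2.26% in the higher direction. The genes were chosen with this contrast in view, so nothing is read from that count.

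Among the surface receptors, Tlr2 had values of 658, 758 and 931 at 0 h, 875, 858 and 758 at 1 h, 935, 867 and 594 at 8 h, and 802, 823 and 870.5 at 16 h in BXCL701 tumours, against 411, 367 and 618 in vehicle tumours of day 14. In 11 of the 12 BXCL701 tumours the value lay above every vehicle tumour, and the remaining 8 h tumour lay just under the highest vehicle tumour. The log2 difference was 0.83 ± 0.14, with means of 9.65 ± 0.20 in BXCL701 tumours and 8.83 ± 0.39 in vehicle tumours (SD, n = 12 and 3). By hour it was 0.77, 0.87, 0.79 and 0.87 at 0, 1, 8 and 16 h. Tlr1, the co-receptor of TLR2, ran between 244 and 553 with a median of 386 in BXCL701 tumours, against 326, 199 and 386 in vehicle tumours. Its log2 difference was 0.36 ± 0.19 and the groups overlapped. Tlr4 ran between 233 and 616 with a median of 357 in BXCL701 tumours, against 326, 308 and 239 in vehicle tumours, and the log2 difference of 0.33 ± 0.32 was about the size of its SE.

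The endosomal receptors Tlr7 and Tlr13 were the members without overlap on day 14 in the scaled table, among 0.843% of all tested genes that were higher without overlap. Tlr13 had 612, 882 and 807 at 0 h, 953, 1077 and 1071 at 1 h, 854, 693 and 690.2 at 8 h, and 734, 737 and 641 at 16 h in BXCL701 tumours, against 555, 379.7 and 571 in vehicle tumours. The 1 h tumours were the highest of the day, and the log2 difference over the hours was 0.69 ± 0.14 (means 9.64 ± 0.27 and 8.95 ± 0.33). Tlr7 ran from 169 through a median of 215 to 376 in BXCL701 tumours, against 125, 92.6 and 151 in vehicle tumours, with a log2 difference of 0.94 ± 0.31, and of 0.60 with the transcript-length index (the tilt of a library towards long transcripts) as a covariate. On the deposited log2 FPKM scale its groups overlapped, with 1.26 to 2.71 in BXCL701 tumours, against 0.69, 1.46 and 0.99 in vehicle tumours. The 2 deposited tables disagree on Tlr7 more than on nearly any other gene: the SD of the log2 ratio between them was 0.459, larger than for 99.0% of 11503 genes, whereas the SD was at most 0.053 for the other 9 members. Tlr9 ran from 104 through 158 to 285 in BXCL701 tumours, against 86.5, 29.5 and 168 in vehicle tumours. Its groups overlapped, 6 of the 12 BXCL701 tumours lay above every vehicle tumour, and the log2 difference was 1.11 ± 0.32.

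Cd180 had the largest fitted difference of the set on day 14. Its values were 257, 251 and 286 at 0 h, 272, 412 and 241 at 1 h, 201, 198 and 264 at 8 h, and 532, 263 and 342 at 16 h in BXCL701 tumours, against 133, 72.4 and 214 in vehicle tumours. In 10 of 12 BXCL701 tumours the value was above every vehicle tumour, and the log2 difference was 1.14 ± 0.27 (means 8.14 ± 0.41 and 7.01 ± 0.78). Its partner Ly86 was nearer to vehicle, at 0.36 ± 0.14: BXCL701 tumours had 1477, 1457 and 1515 at 0 h, 1665, 1862 and 1338 at 1 h, 1077, 1291 and 986 at 8 h, and 2215, 1593 and 2043 at 16 h, against 1001, 1220.5 and 1321 in vehicle tumours. At 8 h Ly86 overlapped vehicle (log2 difference -0.08), while all tumours of the other hours lay above it. Of all tested genes, 6.69%, 6.31% and 5.84% were higher without overlap at 0, 1 and 16 h. Of the TLR4 helpers, Ly96 was below every vehicle tumour in 9 of 12 BXCL701 tumours, which ran from 99.1 to 156 with a median of 111, against 138, 228 and 133 in vehicle tumours (log2 difference -0.45 ± 0.17). Cd14 ran from 1576 through 2638 to 3845, against 2623, 2669.6 and 1502 in vehicle tumours, and differed by 0.17 ± 0.23.

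The day 14 differences leaned on 1 vehicle tumour. Replicate 2 of vehicle day 14 had the lowest value of all 42 tumours for Tlr1, Tlr2, Tlr9, Tlr13 and Cd180 and the highest for Ly96. Its mean level over 5 leukocyte markers was 10.72 on the log2(value + 1) scale, the lowest of all tumours. The next vehicle tumour of day 14 was close to it at 10.745, and the highest was at 11.23. BXCL701 tumours of day 14 ran from 10.903 to 11.609, so a low leukocyte level was not confined to replicate 2. The mean of replicate 2 over 12 macrophage markers was also the lowest. The next vehicle tumour was at 10.433 and the highest at 11.052, against 10.562 to 11.516 in BXCL701 tumours. The transcript-length index of replicate 2 was -0.214, against -0.00425 and -0.0592 in replicates 1 and 3. The part of the markers and of the index in these differences was not tested. Without replicate 2 the log2 differences were 0.67 ± 0.16 for Tlr2, 0.45 ± 0.31 for Tlr9, 0.50 ± 0.16 for Tlr13 and 0.73 ± 0.30 for Cd180, and 0 of the 10 genes passed. Without vehicle replicate 1, Tlr2 and Tlr13 alone passed, at 0.75 and 0.78. Tlr9 kept its adjusted p under 0.05 in 5 of 15 fits with 1 tumour left out. Without vehicle replicate 3 the differences were larger, at 1.05 for Tlr2, 1.68 for Tlr9, 0.80 for Tlr13 and 1.51 for Cd180. The Ly96 difference ran from -0.58 to -0.20 over the 15 fits with 1 tumour left out.

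Markers of immune cells were mostly fitted higher on day 14 as well, where 2.26% of all tested genes rose. The 5 leukocyte markers (Ptprc, Cd52, Laptm5, Coro1a, Cd53) were all fitted higher and none passed. Their summed value ran from 10951 to 18856.5 in BXCL701 tumours, against 9502 to 15143 in vehicle tumours. All 12 macrophage markers were fitted higher and 2 rose (Mertk 1.32 ± 0.28, adjusted p = 0.0111, and Adgre1, 0.58 ± 0.15, adjusted p = 0.0244, in limma). Their sum ran from 38692 to 82811 in BXCL701 tumours, against 33606 to 54657 in vehicle tumours. Of 12 neutrophil markers 7 rose, led by Mmp8 at 2.95 ± 0.42 (adjusted p = 0.00109), with sums of 3055 to 10535 in BXCL701 tumours and 2546 to 4199 in vehicle tumours. The neutrophil list mean did not overlap, at 6.49 to 8.18 on the log2(value + 1) scale in BXCL701 tumours, against 5.42 to 5.63 in vehicle tumours. Of 10 dendritic cell markers 8 were fitted higher and none passed, with sums of 4022 to 6810 in BXCL701 tumours and 2657 to 4069 in vehicle tumours. Bst2 was the largest part of the dendritic cell sums, with a median of 3535 over all 42 tumours, against 649 for Itgax, the next marker. None of 7 tested B cell markers passed, and their sum was 61.1 to 464 in BXCL701 tumours, against 92.9 to 412 in vehicle tumours. No leukocyte, macrophage, dendritic cell or B cell marker was at 0 in any library, while the neutrophil granule genes Ngp and Camp were at 0 in 11 and 20 of the 42. The 8 keratinocyte and 8 skeletal muscle markers were all fitted lower (medians -1.48 and -0.57) and the 8 adipocyte markers all higher (0.84), and none of these passed. The part of these cell markers in the differences of the 10 genes was not tested.

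**Figure D2:**
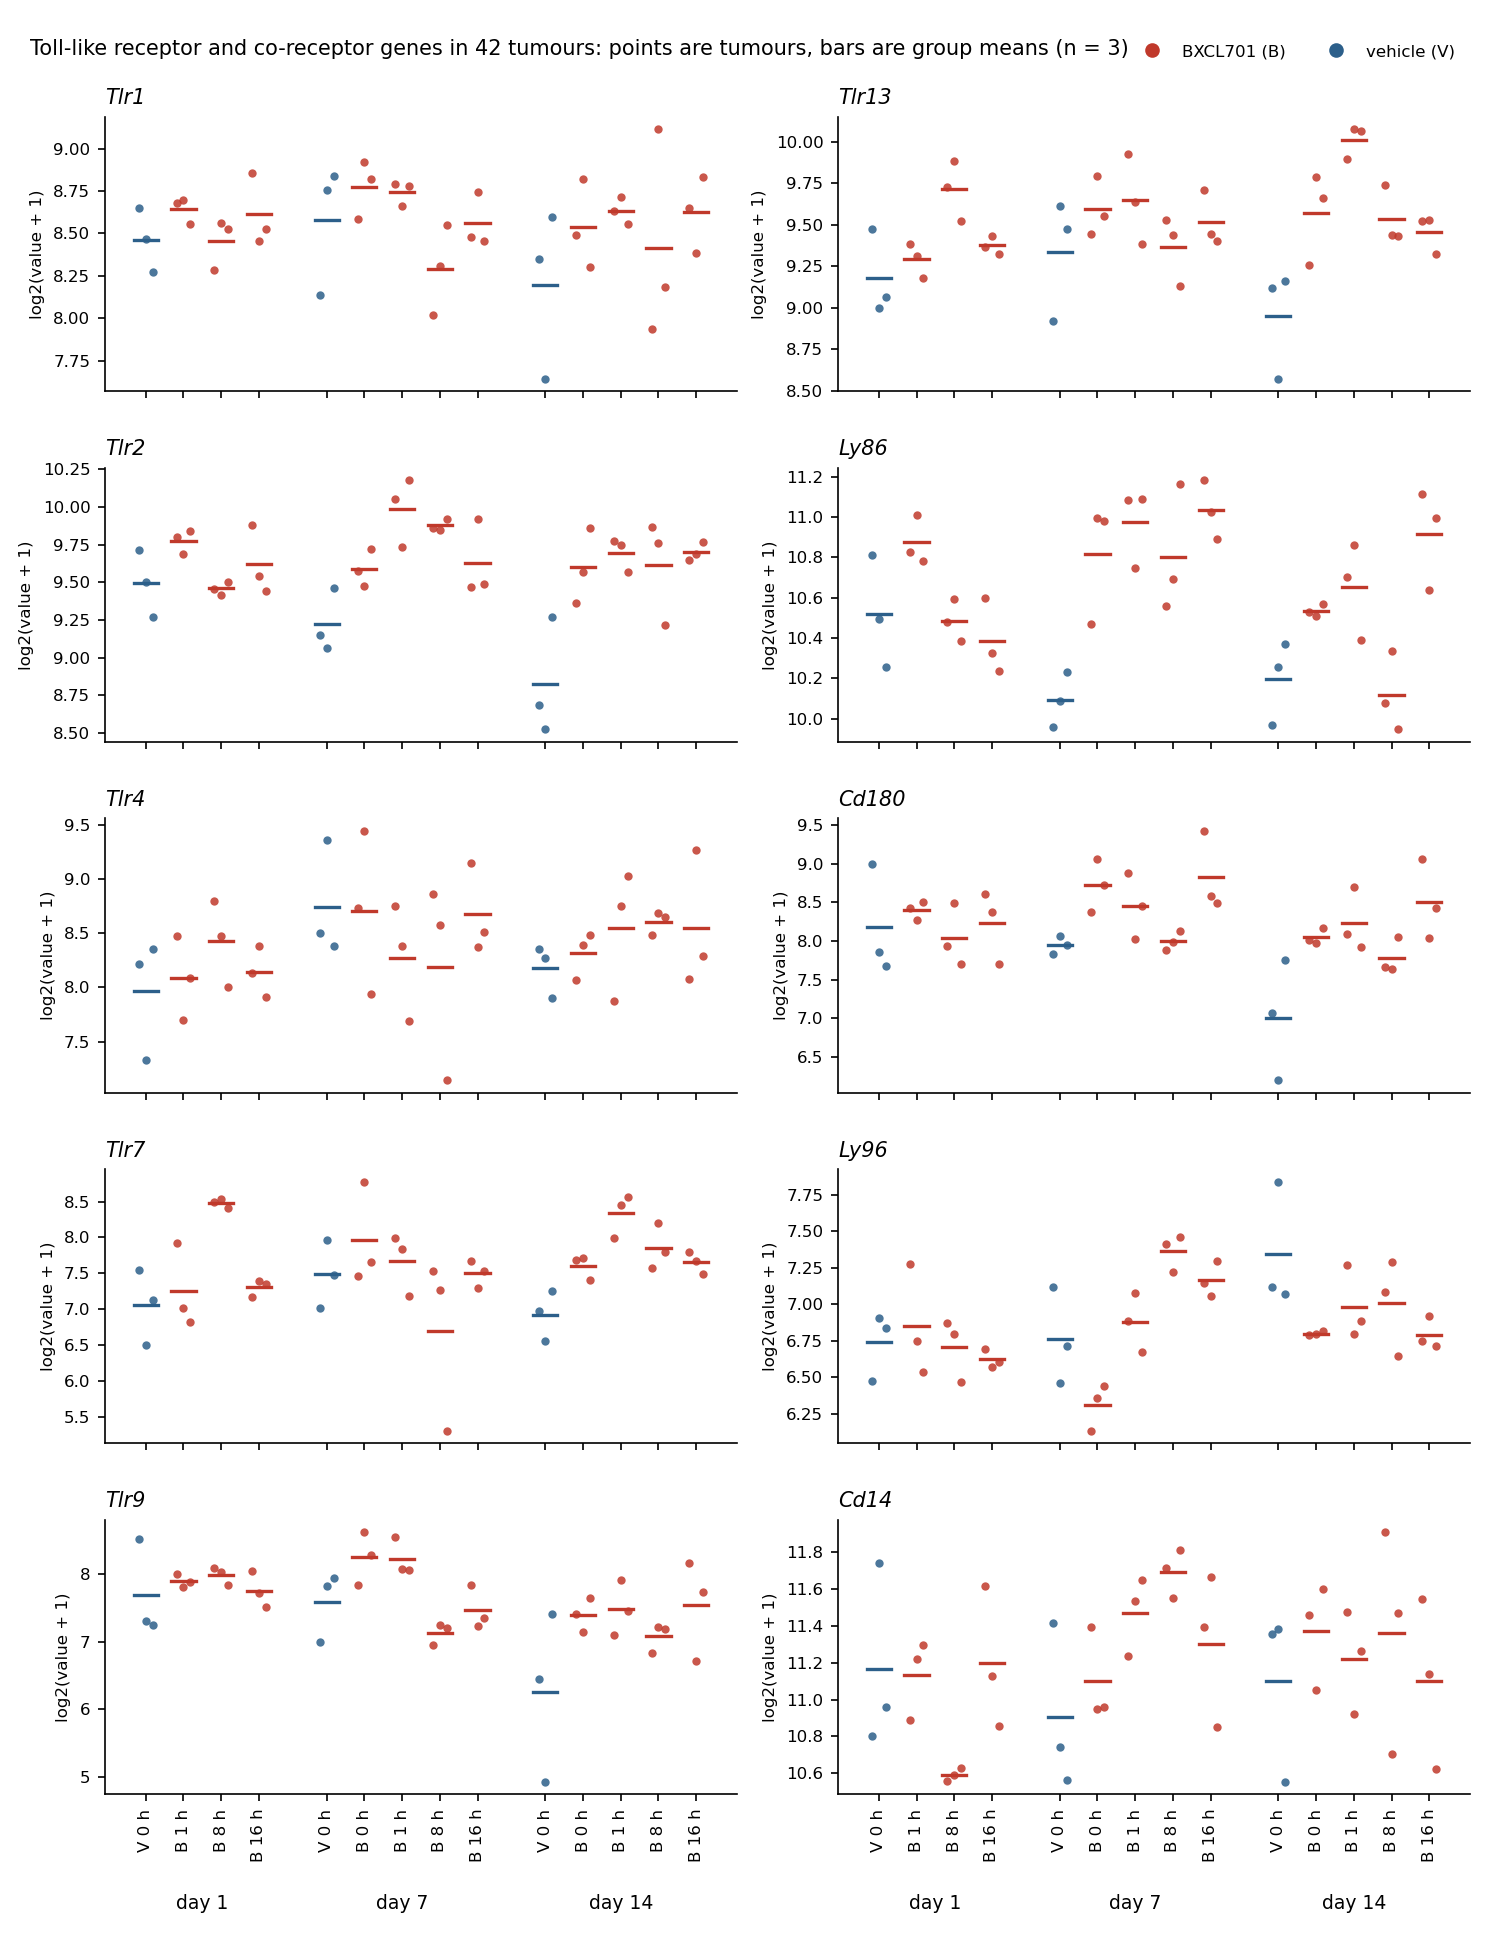
Each gene in all 42 tumours, as log2(value + 1) of the deposited scaled table (y axis), by day and harvest hour (x axis; V vehicle, B BXCL701). Points are tumours and bars are means of 3 tumours; on day 14 the vehicle points of Tlr2, Tlr9, Tlr13 and Cd180 lie low and 1 of them lowest of all, on day 7 the vehicle points of Ly86 lie under all 12 BXCL701 points, and on day 1 the 9 BXCL701 points together overlap vehicle in every gene.

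On day 7, Ly86 was the gene of the set that stood furthest above vehicle, and Ly86 and Tlr2 were the members without overlap. Ly86 had 1418, 2038 and 2019 at 0 h, 2169, 1718 and 2180.5 at 1 h, 1507, 1653 and 2289 at 8 h, and 2323, 2082 and 1898 at 16 h in BXCL701 tumours, against 993, 1088 and 1199 in vehicle tumours. All 12 BXCL701 tumours lay above all 3 vehicle tumours. The log2 difference was 0.81 ± 0.14, with means of 10.91 ± 0.24 in BXCL701 tumours and 10.09 ± 0.14 in vehicle tumours (SD, n = 12 and 3), and it was 0.72, 0.88, 0.71 and 0.94 at 0, 1, 8 and 16 h. Ly86 was the 1 gene of all 16613 with an adjusted p under 0.05 (0.00602%), and it was named for this, so the count is a description. It did not pass when any of the 3 vehicle tumours was left out, with log2 differences of 0.75, 0.81 and 0.88.

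Tlr2 on day 7 had 760.2, 709 and 843 at 0 h, 1060.0, 849.7 and 1158 at 1 h, 929.9, 921 and 968 at 8 h, and 708, 967 and 718 at 16 h in BXCL701 tumours, against 568, 535 and 704 in vehicle tumours. No BXCL701 tumour overlapped with vehicle, although the lowest lay at 708 and the highest vehicle tumour at 704. The log2 difference was 0.54 ± 0.14. Genes that were higher without overlap made up 0.451% of all tested genes on this day.

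Cd180 ran from 235 through 354 to 686 on day 7 in BXCL701 tumours, against 228, 265 and 245 in vehicle tumours, a log2 difference of 0.56 ± 0.27. The 8 h tumours (235, 253 and 278) sat at the vehicle level and those of 0, 1 and 16 h mostly above it, with fitted differences of 0.77, 0.51, 0.05 and 0.89 at 0, 1, 8 and 16 h. Cd14 ran from 1842 through 2828 to 3593, against 2729, 1714 and 1510.4 in vehicle tumours (0.49 ± 0.23). Its partner Ly96 had 69.2, 81.2 and 85.7 at 0 h, below all 3 vehicle tumours (138, 87.0 and 104), and 169.6, 148 and 175 at 8 h, above all 3. Of all tested genes, 3.1% were lower without overlap at 0 h and 15.2% were higher without overlap at 8 h. The remaining receptors were near vehicle: the log2 difference was 0.20 ± 0.14 for Tlr13, 0.18 ± 0.32 for Tlr9, 0.02 ± 0.19 for Tlr1, -0.03 ± 0.31 for Tlr7 and -0.28 ± 0.32 for Tlr4. The median over the 10 genes was 0.19, against -0.03 over all tested genes. Summed leukocyte markers ran from 15316 to 31199 in BXCL701 tumours, against 12423 to 14025 in vehicle tumours of day 7, and those of macrophage markers from 47836 to 131011, against 37116 to 48686. The leukocyte and the neutrophil markers did not overlap in their list means on the log2(value + 1) scale. The leukocyte mean ran from 11.41 to 11.74 in BXCL701 tumours, against 11.09 to 11.24 in vehicle tumours. The neutrophil mean ran from 6.18 to 7.39, against 5.86 to 5.99, and the neutrophil sums from 4413 to 9105, against 3978 to 4896. Dendritic cell sums ran from 4512 to 11111, against 2633 to 4703, and B cell sums from 87.2 to 386, against 125 to 228 in vehicle tumours. No marker of these 5 lists passed on day 7, and their part in the differences of Ly86 and Tlr2 was not tested.

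At 0 h both arms had tumours on days 7 and 14, and 6 BXCL701 tumours were set against 6 vehicle tumours at this shared hour. These vehicle tumours are the same ones as in the day 7 and day 14 differences, so the values add no independent evidence. Ly86 ran from 1418 through 1496 to 2038 in BXCL701 tumours, against 993 through 1143 to 1321 in vehicle tumours, without overlap, where 0.596% of all tested genes were higher without overlap. Its log2 difference was 0.53 ± 0.12 (means 10.67 ± 0.24 and 10.14 ± 0.17). Tlr2 ran from 658 through 759 to 931, against 367 through 551.5 to 704 in vehicle tumours, and differed by 0.57 ± 0.13. Cd180 (0.91 ± 0.24), Tlr9 (0.90 ± 0.29), Tlr7 (0.58 ± 0.28) and Tlr13 (0.44 ± 0.13) were also fitted higher, and Ly96 lower (-0.50 ± 0.15). Of the 10 genes, 2 had an adjusted p under 0.05 (Ly86 and Tlr2), where 0.512% of all tested genes passed, 0.476% in the higher direction. With 1 tumour left out, Ly86 stayed under 0.05 in 2 and Tlr2 in 3 of 12 fits.

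Whether these genes responded to a first dose was tested on day 1, in tumours that had no part in the choice of the genes. None of the 10 genes passed: the limma adjusted p lay between 0.906 and 0.993. Of all tested genes 0% passed as well, while 437 had an unadjusted p under 0.05, 262 higher and 175 lower. Ly86 ran from 1205 through 1546 to 2061 in 9 BXCL701 tumours, against 1793, 1439.9 and 1222 in vehicle tumours, and its log2 difference was 0.06 ± 0.14 (adjusted p = 0.939). Tlr2 ran from 682 through 745 to 942, against 838, 724 and 617 in vehicle tumours, with a difference of 0.12 ± 0.15. All 3 vehicle tumours lay inside the BXCL701 range of Ly86, and 2 of 3 lay inside that of Tlr2. Cd180 (0.05 ± 0.28), Ly96 (-0.01 ± 0.18), Tlr1 (0.11 ± 0.19), Tlr9 (0.19 ± 0.33), Tlr4 (0.25 ± 0.33) and Cd14 (-0.19 ± 0.24) differed by less than their SE. The median over the set was 0.12, against 0.03 over all genes, and no member was without overlap, where 0.181% of all genes were so in the higher and 0.0843% in the lower direction.

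The largest day 1 differences were those of Tlr7 (0.62 ± 0.32) and Tlr13 (0.28 ± 0.15), adjusted p = 0.906 each, and both were largest at 8 h. Tlr7 had 360.1, 369 and 339 in the 8 h BXCL701 tumours, against 186, 89.9 and 139 in vehicle tumours, a log2 difference of 1.42 ± 0.39 (limma adjusted p = 0.278). Tlr13 had 847, 945 and 736 at 8 h, against 710.2, 509.8 and 534 in vehicle tumours (0.53 ± 0.18, adjusted p = 0.278). Cd14 moved the other way at 8 h, with 1504, 1538 and 1580.0 in BXCL701 tumours, against 1782, 3422 and 1987 in vehicle tumours (-0.58 ± 0.29, adjusted p = 0.310). The groups did not overlap in these 3 genes, but they did not overlap in 12.6% of all tested genes in the higher and 17.3% in the lower direction either, and no gene passed. The 3 tumours of the 8 h group had transcript-length indices of 0.158, 0.156 and 0.113, against 0.0504, -0.372 and -0.00572 in vehicle tumours of day 1, and the part of the index in these values was not tested.

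How the genes differed between harvest hours was tested within BXCL701 tumours, with days 1, 7 and 14 weighted equally and 9 tumours an hour. None of the 10 genes passed at 8 h against 1 h, where 0.337% of all tested genes did, at 16 h against 1 h (0.114%) or at 16 h against 8 h (0.229%). With the days pooled, Ly86 and Cd180 had the lowest median of the 3 hours at 8 h, as did Tlr1 and Tlr9. On day 1 alone the Ly86 median was lowest at 16 h, at 1282, against 1425 at 8 h. Ly86 ran from 986 through 1425 to 2289 at 8 h, against 1338 through 1817 to 2180.5 at 1 h, a log2 difference of -0.36 ± 0.10 (limma adjusted p = 0.122), with means of 10.47 ± 0.35 and 10.83 ± 0.22 (SD, n = 9 each). At 16 h Ly86 ran from 1205 through 1898 to 2323, a difference of 0.31 ± 0.10 from 8 h (adjusted p = 0.319). The hours overlapped in both comparisons. Cd180 ran from 198 through 243 to 357 at 8 h, against 241 through 343 to 470.4 at 1 h (-0.42 ± 0.20, adjusted p = 0.716). At 16 h Cd180 ran from 207 through 359 to 686, a difference of 0.58 ± 0.20 from 8 h (adjusted p = 0.390).

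The Ly86 difference between 8 h and 1 h was the tested result nearest to the threshold, and it crossed it in some settings. Without the tumour of replicate 3 at 8 h on day 7, which had the highest 8 h value (2289) and the lowest length index of all libraries (-0.408), it was -0.42 ± 0.10 (adjusted p = 0.0286). Over all settings and left-out tumours its adjusted p ran from 0.0285 to 0.281. The 5 leukocyte markers were all fitted lower at 8 h than at 1 h and none passed, with a list mean of 11.27 ± 0.22 at 8 h and 11.50 ± 0.11 at 1 h, and their part was not tested. Tlr9 (-0.47 ± 0.23, adjusted p = 0.763) and Tlr1 (-0.29 ± 0.14, adjusted p = 0.716) were also fitted lower at 8 h. Of the 10 genes 8 were fitted lower and 2 higher at 8 h than at 1 h, with a median of -0.14 against 0.00 over all genes, and the median at 16 h against 1 h was -0.08, against 0.02.

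Vehicle tumours are the comparison within each day, so their own levels by day are given beside those of BXCL701 tumours, as a description. None of the 10 genes passed between days: 0% of all tested genes did so for vehicle day 7 against day 1 (3051 had an unadjusted p under 0.05 in limma), 0.0602% for vehicle day 14 against day 1, and 0.12% and 1.27% for the same days of BXCL701 tumours. The vehicle level of Tlr9 differed by -1.43 ± 0.40, of Cd180 by -1.17 ± 0.34 and of Tlr2 by -0.67 ± 0.18 on the log2 scale (day 14 minus day 1), and that of Ly96 by 0.60 ± 0.22. Over the same days BXCL701 tumours at 1, 8 and 16 h differed by -0.51 ± 0.23 in Tlr9, -0.05 in Cd180 and 0.05 in Tlr2. For Ly86, vehicle tumours of day 7 stood -0.43 ± 0.17 from those of day 1, and BXCL701 tumours of day 7 stood 0.36 ± 0.10 from those of day 1. The difference of the drug effect between days was not tested. Over the set, the median day 14 minus day 1 difference was -0.25 in vehicle tumours and 0.12 in BXCL701 tumours.

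The pathway around the receptors was read from 6 lists, of which 73 of 76 genes could be tested (not Il12a, Ifnb1 and Acod1). The lists were also drawn up with earlier results known. On day 14, 6 of the 73 genes passed, 5 higher and 1 lower, where 3.29% of all tested genes passed, 2.26% higher and 1.03% lower. Cathepsin S (Ctss), a protease that cleaves endosomal receptors, rose: it ran from 10708 through 13891 to 18600 in BXCL701 tumours, against 6971, 8793 and 10408 in vehicle tumours, without overlap (0.72 ± 0.15, limma adjusted p = 0.00925). The adaptor TRAM (Ticam2), which links TLR4 to TRIF, rose by 0.91 ± 0.23 (adjusted p = 0.0259), and Ikbke, a kinase of the interferon arm, by 0.61 ± 0.17 (adjusted p = 0.0360). Irf8, a myeloid transcription factor, rose by 0.87 ± 0.24 (adjusted p = 0.0353) and the cytokine subunit Il12b by 1.91 ± 0.49 (adjusted p = 0.0272). Hmgb1, a nuclear protein that acts as a danger signal once released, fell by 0.59 on the log2 scale (SE 0.14, adjusted p = 0.0193). None of these calls held without vehicle replicate 1 or without vehicle replicate 2, and 19 of the 73 genes passed without vehicle replicate 3. The share of all tested genes that passed in that fit is not given here, so nothing is read from the 19. With any 1 of the 15 tumours left out, Ikbke held in 10 fits and Irf8 in 9.

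By role, the 6 other Toll-like receptors (Tlr3, Tlr5, Tlr6, Tlr8, Tlr11 and Tlr12) were all fitted higher on day 14, with a median of 0.95 and none passed; Tlr11 (1.53 ± 0.51, adjusted p = 0.0867) and Tlr8, the neighbour of Tlr7 (1.44 ± 0.52, adjusted p = 0.122), were the nearest. Of 13 genes of ligand handling and receptor transport, 1 rose (Ctss) and 1 fell (Hmgb1), with a median of 0.27, and Unc93b1, the escort of endosomal receptors, was at 0.56 ± 0.23 (adjusted p = 0.167). Of 17 adaptors and kinases 2 rose (Ticam2 and Ikbke; median 0.16), and of 10 transcription factors 1 rose (Irf8; median 0.24). None of 10 inhibitors passed (median 0.17), with Ptpn6 at 0.62 ± 0.19 (adjusted p = 0.0624) and Irak3 at 0.97 ± 0.31 (adjusted p = 0.0765). Of 17 target genes 1 rose (Il12b; median 0.53), and the acute phase gene Saa3 was at 2.31 ± 0.78 (adjusted p = 0.0912).

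None of the 73 pathway genes passed on day 1, on day 7 or at 8 h against 1 h. On day 7 the nearest were Ctss (0.56 ± 0.15, adjusted p = 0.386) and Unc93b1 (0.73 ± 0.23, adjusted p = 0.462). On day 1 Tlr8 was at 0.97 ± 0.54 and Il12b at 0.90 ± 0.51, adjusted p = 0.906 each. At 0 h over days 7 and 14, Ctss (0.69 ± 0.13, adjusted p = 0.0193) and Irf8 (0.89 ± 0.21, adjusted p = 0.0477) rose. Between hours, the target gene Il1b was higher at 16 h than at 1 h (1.10 ± 0.22, adjusted p = 0.0264) and Tnf was higher at 16 h than at 8 h (0.75 ± 0.17, adjusted p = 0.0406). With 1 tumour left out, Il1b held in 7 of 18 fits and Tnf in 3 of 18, and at 0 h Ctss held in 6 and Irf8 in 1 of 12. The neutrophil markers S100a9 and S100a8 also passed at 16 h against 8 h, at 1.22 and 1.07, and their part in the values of Il1b and Tnf was not tested.

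Across the 42 tumours, each gene was set against the mean level of 8 cell type marker lists and against a transcript-length index, in 90 relations with Benjamini-Hochberg adjustment. Tlr2, Ly86 and Cd180 moved most with the leukocyte markers. For Tlr2 Pearson's r was 0.801 (permutation p = 1e-05, the smallest that 100000 permutations can give; adjusted 0.00015) and Spearman's rho 0.686 (permutation p = 1e-05, adjusted 0.00018). It was 0.669 without the 2 tumours farthest from the median and 0.723 within groups. For Ly86 r was 0.763 and rho 0.751 (permutation p = 1e-05 each, adjusted 0.00015 and 0.00018), with 0.765 without the 2 farthest tumours and 0.599 within groups. For Cd180 r was 0.699 and rho 0.631 (permutation p = 2e-05 each, adjusted 0.000225 and 0.0003), with 0.528 and 0.469. With the B cell markers, r was 0.01 for Cd180 (permutation p = 0.975) and 0.05 for Ly86 (permutation p = 0.751). Against the macrophage markers, r was -0.07 for Tlr4 (permutation p = 0.669). For Cd14 it was -0.338 (permutation p = 0.0269, adjusted 0.0713), and -0.584 within groups. Cd14 had r of 0.418 with the neutrophil markers (permutation p = 0.0061, adjusted 0.0195). Tlr1 moved most with the macrophage markers, with r of 0.771 and rho of 0.713 (permutation p = 1e-05 each, adjusted 0.00015 and 0.00018), 0.695 without the 2 farthest tumours and 0.845 within groups. These relations compare genes of the same libraries, and no list holds a member. Each permutation p in the 90 relations belongs to an r or rho over all 42 tumours. That r or rho takes in the differences from vehicle for which Ly86 and Tlr2 were named. The p values are therefore given as a description, and the r within groups has no p.

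**Figure D3:**
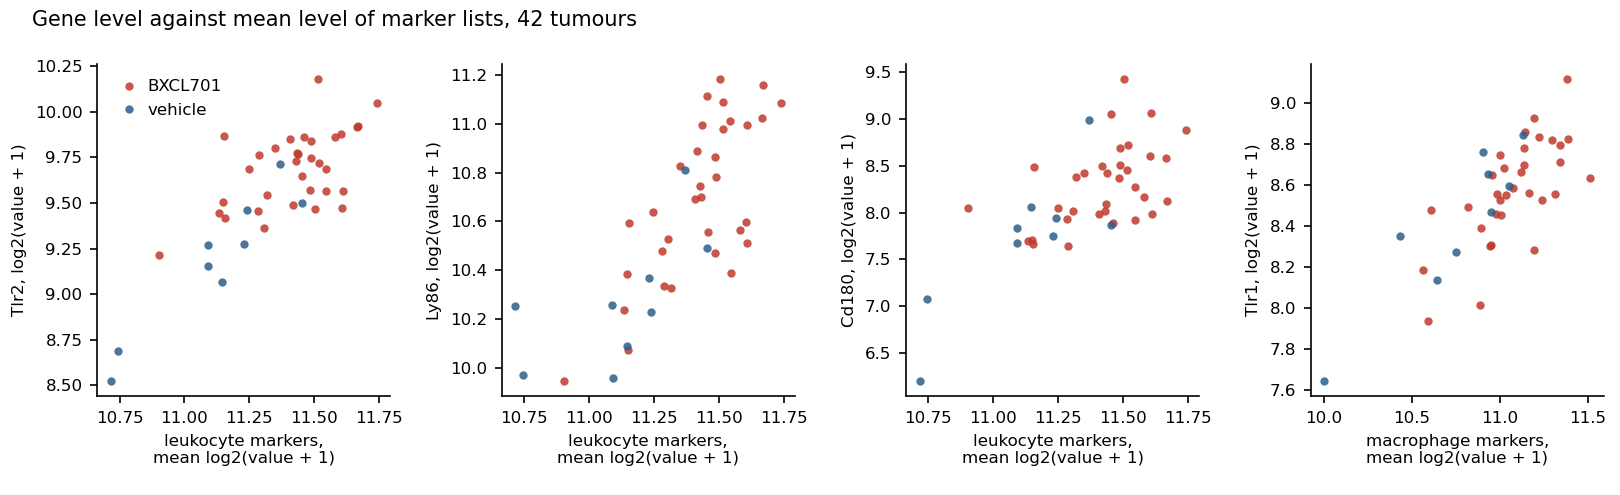
Levels of Tlr2, Ly86 and Cd180 against the mean of 5 leukocyte markers, and of Tlr1 against the mean of 12 macrophage markers, all as log2(value + 1); points are 33 BXCL701 and 9 vehicle tumours. Pearson's r is 0.801, 0.763, 0.699 and 0.771 from left to right, and the vehicle tumour lowest in both lists (10.72 for the leukocyte markers) is also the lowest in Tlr2, Cd180 and Tlr1.

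Tlr4 and Tlr7 instead followed the transcript-length index, the slope of a library's deviations from each gene's mean on the gene's log2 length, over 11503 genes with a mean of at least 100. A positive index means that long transcripts read higher in that library. For Tlr4 r was 0.821 and rho 0.686 (permutation p = 1e-05 each, adjusted 0.00015 and 0.00018), with 0.741 without the 2 farthest libraries and 0.875 within groups. For Tlr7 r was 0.783 and rho 0.679 (permutation p = 1e-05 each, adjusted 0.00015 and 0.00018), with 0.68 and 0.824. Tlr13 also rose along the index, with r of 0.515 (permutation p = 0.0005, adjusted 0.003) and rho of 0.496 (permutation p = 0.00095, adjusted 0.00855). Its r was 0.443 without the 2 farthest libraries and 0.602 within groups. Tlr9 had r of 0.389 (permutation p = 0.0133, adjusted 0.0387) and rho of 0.361 (permutation p = 0.0191, adjusted 0.0654), with r of 0.41 and 0.363. Both genes had a larger r with the macrophage markers. It was 0.62 for Tlr13 (permutation p = 1e-05, adjusted 0.00015), with 0.455 without the 2 farthest libraries and 0.278 within groups. For Tlr9 it was 0.633 (permutation p = 0.00011, adjusted 0.0009), with 0.344 and 0.481. Cd14 ran against the index, with r of -0.57 (permutation p = 4e-05, adjusted 0.00036) and rho of -0.565 (permutation p = 0.00011, adjusted 0.00124), and r was -0.492 without the 2 farthest libraries and -0.506 within groups. Ly96, which has by far the shortest transcript of the set, had r of -0.474 (permutation p = 0.00139, adjusted 0.00695) and rho of -0.374 (permutation p = 0.0151, adjusted 0.0619), with r of -0.453 without the 2 farthest libraries and -0.32 within groups. For Ly86 r was -0.227 (adjusted 0.34). The groups of Tlr4 overlapped on days 1, 7 and 14, and the part of the index in its spread was not tested.

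**Figure D4:**
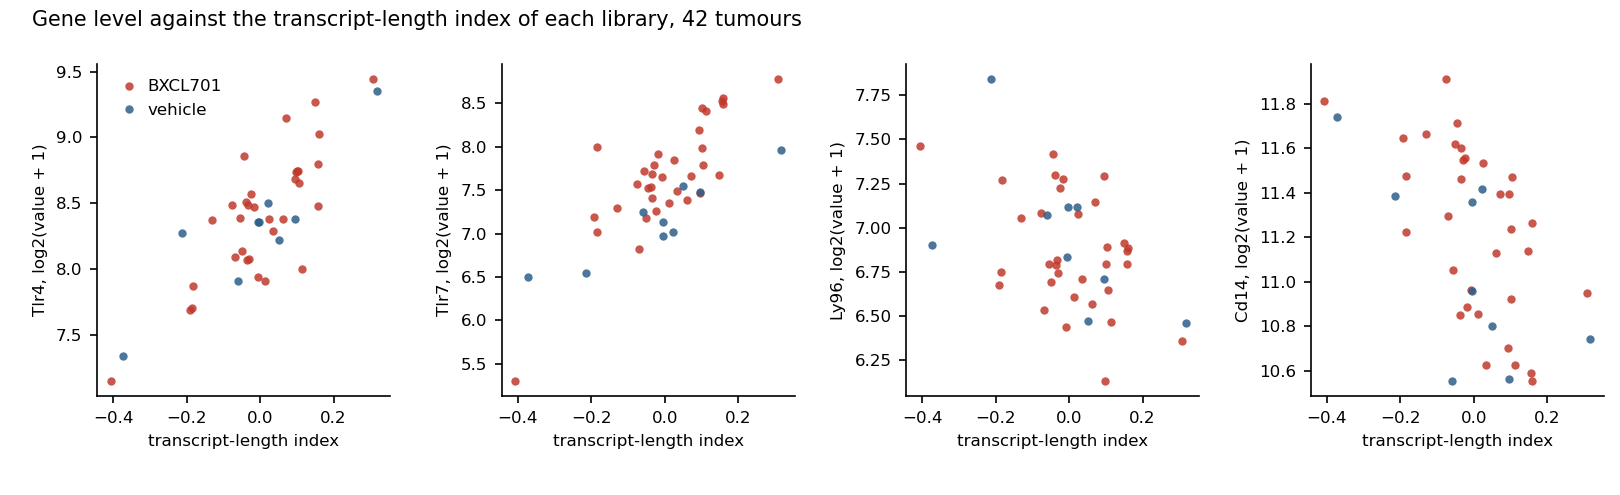
Levels of Tlr4, Tlr7, Ly96 and Cd14, as log2(value + 1), against the transcript-length index of each library (x axis, no unit); points are 33 BXCL701 and 9 vehicle tumours. Tlr4 and Tlr7 rise along the index (r of 0.821 and 0.783), and Ly96 and Cd14 fall along it (-0.474 and -0.57).

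Pairs of the 10 genes were compared as a description over 42 tumours, with no p. The closest pair was Tlr9 and Cd180 (r of 0.81, and 0.85 within groups), then Tlr7 and Tlr13 (0.76 and 0.64) and the partners Ly86 and Cd180 (0.71 and 0.61). Tlr1 and Tlr2 had r of 0.43, and Tlr4 had -0.09 with Ly96 and -0.23 with Cd14. Tlr9 and Ly96 ran opposite each other (-0.67, and -0.51 within groups). Both genes of a pair come from the same library and share its depth, tissue makeup and length index.

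The tested genes outside the set whose levels were most like each member, by Pearson's r over the 42 tumours, are named without a p. For Tlr2 they were Cd86 (0.86), Ly9, Hk3, Slc11a1 and H2-Q7 (0.83), and for Tlr1 Pirb (0.81), Rassf4, Themis2, 9830144P21Rik and Gpc2 (0.75). For Ly86 they were Clec12a (0.83), Fam26f, Samhd1, Gbp2b and Fcgr4 (0.76), and for its partner Cd180 Lair1 (0.88), Pik3ap1, Cyfip2, Itgal and Mpeg1 (0.79). Tlr9 had Prex1 (0.90), Pik3ap1, Gbgt1, the macrophage marker Adgre1 and C3ar1 (0.83), so Pik3ap1 stood in the lists of both Tlr9 and Cd180. Tlr13 had Plek (0.79), Sla, Cd84, AI607873 and Pag1 (0.76), and Tlr7 had Abca9 (0.89), Serinc3, Tm6sf1, BE692007 and its neighbour Tlr8 (0.85). The genes most like Tlr4 were Rapgef6 (0.93), Sppl2a, Zfp729a, Nufip2 and Vcpip1 (0.92). Ly96 had Uqcrb (0.77), Gpx8, Cox7b, Gm28437 and Cox7c (0.75), of which Uqcrb, Cox7b and Cox7c encode small subunits of the respiratory chain. Cd14 had Wnt10a (0.90), Bdkrb1, Ifitm3, Lynx1 and Smpd1 (0.87), and against the keratinocyte marker list its r was -0.656 (permutation p = 2e-05, adjusted 0.000225) and its rho -0.63 (permutation p = 3e-05, adjusted 0.000386), with r of -0.621 without the 2 farthest tumours and -0.594 within groups.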

How the data were processed

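RNA of 42 tumours was sequenced. Per the submitters' processing notes, reads were handled with Trimmomatic 0.36 and Bowtie 0.12.9 on GRCm38. For the quantifier, annotation and scaling, nothing is given in the sources used here. The authors deposited a table named as counts whose values are not whole, so it was read as a scaled signal and no count test was run; the depth is unknown, and the deposited values sum to between 19133149 and 26633378 a library. The authors also deposited log2 FPKM values, used for levels between genes and as an alternative. Columns matching no sample numbered 0.

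Values were tested as log2(value + 1) with limma 3.58.1 (trend and robust) in R 4.3.3, keeping 16613 of 47729 genes with at least 10 in at least 3 libraries, with 1 coefficient for each of 14 groups, 28 residual degrees of freedom and Benjamini-Hochberg adjustment over all genes within a comparison (threshold 0.05). The fit was tested on simulated data with 200 changed genes, raised or lowered by 1 or by 2 log2 units. For day 1 against vehicle it recovered 64% of genes raised and 76% of genes lowered by 1 log2 unit, with 8 false calls. For 8 h against 1 h it recovered 82% and 92%, also with 8 false calls. Changes smaller than 1 log2 unit were not simulated, nor was a change of 1 log2 unit in a few genes alone. Replicates are separate animals. The members and lists were chosen with earlier results of these data known. The text names all 10 members, up to 4 genes of smallest p from each other list, and the 5 genes most correlated with each member, and any gene beyond these was chosen after its values were seen. Motifs, coordinates and correlations were computed in Python 3.11.15 with numpy 2.4.6, scipy 1.17.1 and pandas 2.3.3, and figures with matplotlib 3.10.9. GENCODE M21 held 47224 of the 47729 gene IDs. Alternatives were another pseudocount, no filter, median-of-ratios scaling, the log2 FPKM table, the compared libraries alone, the length index as a covariate, each library left out in turn and, chosen after seeing the data, the 4 libraries of extreme length index left out.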

Additional observations from a re-analysis of the deposited data

Results flagged for a closer look

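Values far from the rest of their group were found for 3 genes in 4 of 60 checks (each of 10 genes in 6 sets of tumours), where chance alone gives about 1 in 20. Tlr7 in replicate 3 of BXCL701 day 7 at 8 h was 5.30 on the log2(value + 1) scale, against 7.26 to 8.53 in the other 8 h tumours. On the deposited log2 FPKM scale Tlr7 was not low in this tumour, at 1.27, against 0.93 to 2.41 in the other 8 h tumours. Tlr4 was low in the same tumour, at 7.15, against 8.00 to 8.86 in the others. The transcript-length index of that library was -0.408, the lowest of all. Tlr7 in replicate 2 of BXCL701 day 7 at 0 h was 8.78, against 7.41 to 7.72 in the other 0 h BXCL701 tumours of days 7 and 14, and that library's index was 0.309. Ly96 in replicate 1 of BXCL701 day 1 at 1 h was 7.28, against 6.47 to 6.87 in the other BXCL701 tumours of day 1, and its library's index was -0.0174. The part of the length index in these values was not tested.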

How the results depend on the processing

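No paired analysis was possible because the replicate numbers only follow the order of the samples and tie no tumour of one group to a tumour of another. Of 560 differences of single genes recomputed under other settings, 489 kept their direction and side of the threshold and 29 changed direction; of 1230 with 1 library left out, 1065 did and 61 changed direction. Of these, 119 and 249 were recomputed calls, of which 84 and 151 held. For each result below that changed, the cause was not tested. The share of all tested genes that passed in each setting is not given here, so the counts of calls below are a description.

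Members called on day 7 were 1, and 0 with the log2 FPKM table, with the compared libraries alone, with the length covariate and without the 4 libraries of extreme length index. On day 14 they were 4, and 0 with the compared libraries alone. At 0 h they were 2, and 0 without a filter, 0 with the compared libraries alone, 4 with the covariate (Tlr2, Tlr13, Ly86 and Cd180) and 0 without the 4 libraries. At 8 h against 1 h they were 0, and 1 (Ly86) with the covariate (-0.35 ± 0.10, adjusted p = 0.0491) and without the 4 libraries (-0.42 ± 0.10, adjusted p = 0.0285). With 1 library left out the counts ran from 0 to 1 on day 7, 0 to 5 on day 14, 0 to 1 at 8 h against 1 h and 0 to 6 at 0 h.

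Pathway genes called on day 14 were 6, and 0 with the compared libraries alone, 29 with the covariate and 10 without the 4 libraries. Without the share of all tested genes beside them, nothing about the pathway is read from these counts. At 8 h against 1 h they were 0, and 1 with median-of-ratios scaling, the log2 FPKM table, the covariate or without the 4 libraries. At 16 h against 1 h they were 1, and 0 without a filter or with the compared libraries alone; at 16 h against 8 h they were 1, and 0 in those 2 settings and without the 4 libraries. At 0 h they were 2, and 1 without a filter, 0 with the compared libraries alone, 11 with the covariate and 0 without the 4 libraries. With 1 library left out the counts ran from 0 to 19 on day 14, 0 to 1 in each comparison of hours and 0 to 12 at 0 h.

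Among the tested differences, those near 0 changed direction. On day 1 Ly96 was 0.0096 with median-of-ratios scaling, 0.079 with log2 FPKM, 0.064 with the covariate and 0.073 without the 4 libraries. With the covariate and without the 4 libraries, Tlr4 was -0.18 and -0.068 and Cd180 -0.062 and -0.11 on day 1, and without the 4 libraries Tlr9 was -0.0023 and Cd14 0.10. At 8 h against 1 h Tlr7 was 0.077 with log2 FPKM and 0.15 without the 4 libraries, and Tlr4 was -0.017 with the covariate. At 16 h against 8 h, with median-of-ratios scaling, log2 FPKM and without the 4 libraries, Tlr2 was 0.028, 0.042 and 0.0062 and Cd14 0.017, 0.029 and 0.0071; Tlr4 was -0.13 without the 4 libraries. With 1 library left out, day 1 differences ran from -0.068 to 0.44 for Tlr4, -0.029 to 0.61 for Tlr9, -0.069 to 0.21 for Ly86, -0.20 to 0.46 for Cd180, -0.14 to 0.073 for Ly96 and -0.37 to 0.10 for Cd14. At 8 h against 1 h they ran from -0.0078 to 0.28 for Tlr4, -0.22 to 0.15 for Tlr7 and -0.15 to 0.048 for Cd14. At 16 h against 1 h they ran from -0.10 to 0.024 for Ly96 and -0.15 to 0.0051 for Cd14, and at 16 h against 8 h from -0.067 to 0.041 for Tlr2, -0.13 to 0.16 for Tlr4 and -0.12 to 0.079 for Cd14. Member medians between days ran from -0.15 to 0.19 for vehicle day 7 against day 1, -0.37 to -0.12 for day 14 against day 1 and -0.60 to -0.22 for day 14 against day 7. In BXCL701 tumours they ran from 0.09 to 0.21, 0.09 to 0.17 and -0.20 to -0.12 for the same pairs of days. Without a read depth, the counting error behind the low values of Tlr9, Tlr7 and Ly96 cannot be given.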
